A study of Mus musculus with 11 samples.

Results

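The FAT and Dachsous genes encode very large atypical cadherins of the cell surface, and Fjx1 encodes the mouse relative of Drosophila Four-jointed. The set was listed by gene family, as Fat1, Fat2, Fat3, Fat4, Dchs1, Dchs2 and Fjx1, with no threshold on a measured value. Of these 7 genes, 6 were analysed here among the 36528 gene IDs of the count tables, and 5 had enough reads to be tested. Dchs2 was not analysed here. PolyA RNA was sequenced from 11 libraries of cell lines grown from mouse liver tumours. The TAZ-S89A group (5 libraries) carried TAZ, the product of Wwtr1, with an alanine at the serine in its name. The YAP-5SA group (3 libraries, written YAP-S5A in the sample labels) carried YAP, the product of Yap1, changed at several such serines, and the YAP-S127A group (3 libraries) carried YAP changed at the single named serine. Every group thus carried a mutant coactivator of the Hippo pathway, and lines with unaltered YAP and TAZ were not analysed here. The promoter behind the mutant is not in the labels, nor is the origin of the replicates (1 tumour or line, or several). All p-values refer to scatter among the libraries at hand, part or all of which may be technical, and the mutant and the identity of the line cannot be told apart.

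In Drosophila, Fat is a receptor for Dachsous on the neighbouring cell, and Four-jointed is a Golgi kinase that phosphorylates their extracellular cadherin repeats and so tunes how strongly they bind. Fat signalling restrains Yorkie, the fly counterpart of YAP and TAZ, and it orients cells within the plane of a tissue. In mammals Fat4 is the member most like fly Fat and binds Dchs1, whereas Fat1, Fat2 and Fat3 are closer to a fly relative that acts on actin and cell migration. Fat1 recruits Ena/VASP proteins to cell contacts, and four-jointed is itself a Yorkie target in the fly.

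The RefSeq table of start-site windows (GRCm38.p6) held 5 of the 7 genes, among them Fat1 and Fat4, the 2 FAT genes with the most reads. Their windows are shown because these 2 genes moved in opposite directions between the TAZ and YAP groups. Each covers 250 bases before and 50 after a transcript start, on the plus strand, at chr8:44949958-44950257 for Fat1 and chr3:38886690-38886989 for Fat4. Capitals mark the start codon and any match to GGAATG, the core letters bound by TEAD factors, or to its reverse complement CATTCC.
Fat1: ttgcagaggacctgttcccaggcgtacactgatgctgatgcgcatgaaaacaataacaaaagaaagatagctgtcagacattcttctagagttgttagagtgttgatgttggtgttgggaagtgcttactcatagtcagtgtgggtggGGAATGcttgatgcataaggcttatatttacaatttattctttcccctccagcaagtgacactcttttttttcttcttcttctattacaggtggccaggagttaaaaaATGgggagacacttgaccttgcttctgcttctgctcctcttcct
Fat4: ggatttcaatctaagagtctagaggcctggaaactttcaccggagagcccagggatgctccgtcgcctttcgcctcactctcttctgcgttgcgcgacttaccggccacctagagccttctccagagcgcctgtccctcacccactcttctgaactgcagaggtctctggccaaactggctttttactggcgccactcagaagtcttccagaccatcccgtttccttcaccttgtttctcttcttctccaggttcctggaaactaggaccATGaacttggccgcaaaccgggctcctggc
The Fat1 window held 1 GGAATG, 102 bases before the start, and the Fat4 window held neither spelling. Fat2 held 1 match and Fat3 and Dchs2 none, while 14.7% of the 32851 windows of this length in the table held at least 1. A match is a string of letters and not evidence of binding. By GENCODE M21, 62 bases of the Fat1 window and 50 of the Fat4 window lie in exons of the gene, and the rest of each lies outside them. These starts lie 17108 bases (Fat1) and 2273 bases (Fat4) past the first base of the gene in RefSeq, so starts further upstream were not searched. Both windows thus lie inside the gene, and the Fat1 match lies outside its exons.

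Fat4 and Fjx1 mRNA stood several times higher in TAZ-S89A than in either YAP group, and Fat1 stood several times lower. Fat2, a minor member, was also highest in TAZ-S89A. Fat3 was found almost solely in YAP-5SA, and Dchs1, the known partner of Fat4, was close to absent from every library. Levels are given as CPM, the share of a library's counts scaled to a fixed total and adjusted between libraries by TMM, and CPM do not correct for gene length. Fold changes are from edgeR's quasi-likelihood fit over all genes, with Benjamini-Hochberg adjusted p-values called under 0.05. In bulk RNA, fewer cells with a transcript and less transcript per cell cannot be told apart.

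Fat4 (Entrez gene 329628, chromosome 3, 38884667 to 39011992), the receptor-like member, was at 83.3, 77.3, 50.2, 79.1 and 71.3 CPM in TAZ-S89A replicates 1 to 5, against 12.9, 9.97 and 12.4 CPM in YAP-5SA and 12.8, 11.8 and 13.03 CPM in YAP-S127A. The TAZ-S89A libraries all lay above all YAP libraries, and the YAP groups overlapped. Against YAP-S127A the log2 fold change was 2.53 (SE 0.18, edgeR adjusted p = 3.02e-08), a 5.76-fold difference with a 95% interval of 4.43 to 7.49. Against YAP-5SA it was 2.62 (SE 0.18, edgeR adjusted p = 1.85e-08). Between YAP-5SA and YAP-S127A the log2 fold change was -0.09 with an interval of -0.48 to 0.29 (edgeR adjusted p = 0.682). The lncRNA gene C230034O21Rik overlaps the start of Fat4 in RefSeq, and the strand setting of the counts is not known. Its counts came to between 3.45% and 3.81% of those of Fat4 in TAZ-S89A libraries, between 2.7% and 6.03% in YAP-5SA and between 2.99% and 5.57% in YAP-S127A.

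Fjx1 (Entrez gene 14221, chromosome 2, 102449366 to 102451792), the Four-jointed relative, was at 23.8, 24.8, 27.7, 29.2 and 35.02 CPM in TAZ-S89A replicates 1 to 5, against 2.35, 2.72 and 2.69 CPM in YAP-5SA and 4.10, 3.08 and 4.28 CPM in YAP-S127A. No group overlapped another. The log2 fold change of TAZ-S89A was 3.44 against YAP-5SA (SE 0.18, edgeR adjusted p = 1.39e-09), or 10.8-fold with an interval of 8.24 to 14.2. Against YAP-S127A it was 2.87 (SE 0.18, edgeR adjusted p = 7.76e-09). The order of the groups was thus TAZ-S89A, YAP-S127A and YAP-5SA. YAP-5SA was lower than YAP-S127A at -0.56 (SE 0.19, edgeR adjusted p = 0.0192), a call lost without YAP-5SA replicate 1 (0.0712), YAP-S127A replicate 1 (0.0673) or YAP-S127A replicate 3 (0.0748).

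Fat1 (Entrez gene 14107, chromosome 8, 44933100 to 45052257) ran the other way. It was at 68.9, 63.8, 48.6, 102.6 and 93.5 CPM in TAZ-S89A replicates 1 to 5, against 330.2, 253.2 and 324 CPM in YAP-5SA and 349.5, 336.9 and 309.1 CPM in YAP-S127A. Every TAZ-S89A library was below every YAP library, and the YAP groups overlapped. Fat1 in TAZ-S89A was at 0.227 of its YAP-S127A level (interval 0.164 to 0.316, log2 fold change -2.14, SE 0.22, edgeR adjusted p = 1.73e-06) and at 0.249 of its YAP-5SA level (interval 0.18 to 0.346, log2 fold change -2.0, SE 0.22, edgeR adjusted p = 2.89e-06). Between YAP-5SA and YAP-S127A the log2 fold change was -0.13, with an interval of -0.67 to 0.41 (edgeR adjusted p = 0.673). Within TAZ-S89A, replicates 4 and 5, whose sample IDs belong to the second number series, were the highest for Fat1 and Fjx1 and the lowest for Fat2. With these 2 libraries left out, TAZ-S89A differed from YAP-S127A by a log2 fold change of -2.47 for Fat1, 2.47 for Fat4, 2.71 for Fjx1 and 0.62 for Fat2, and from YAP-5SA by -2.31, 2.59, 3.31 and 1.9 for the same genes.

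**Figure D1:**
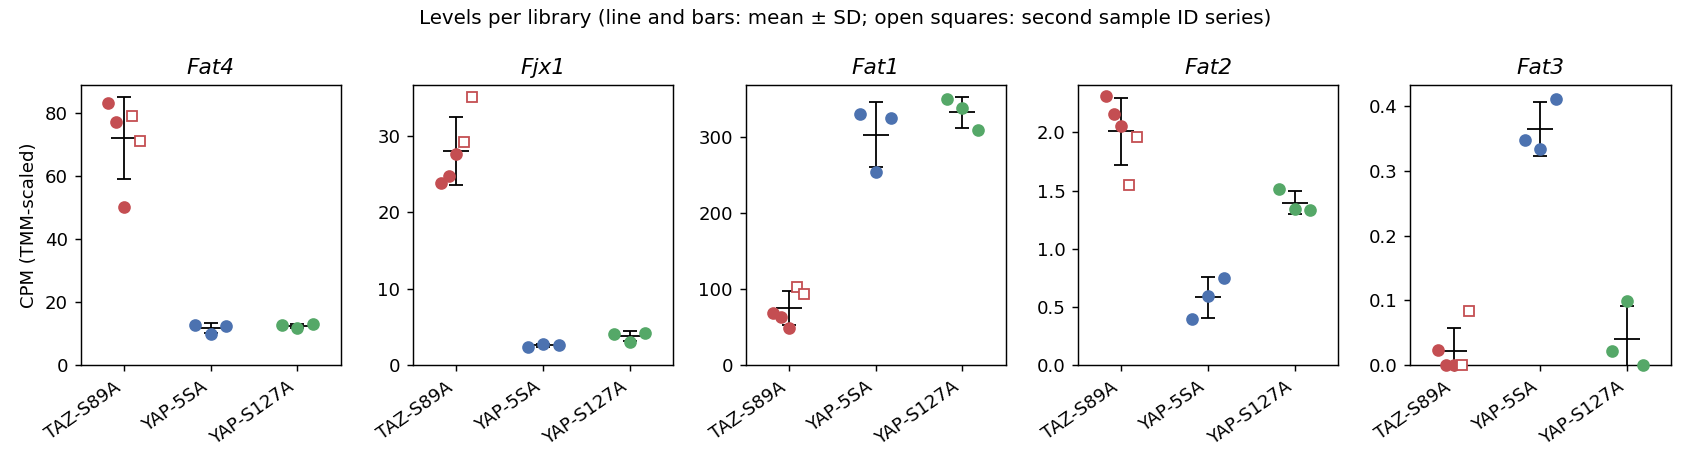
Level of the 5 tested members in each library (CPM, linear axes that start at 0, 1 panel per gene), with the mean and SD of each group as lines and TAZ-S89A replicates 4 and 5 as open squares. Fat4 and Fjx1 are high in all 5 TAZ-S89A libraries, and Fat1 is high in the 6 YAP libraries. Fat3 is highest in the 3 YAP-5SA libraries, but at only 13, 14 and 17 reads.

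Fat2 (Entrez gene 245827, chromosome 11, 55250609 to 55337505), whose Drosophila relative acts in collective migration of an epithelium, was rare in all groups. It was at 2.31, 2.16, 2.06, 1.55 and 1.96 CPM in TAZ-S89A replicates 1 to 5, against 0.401, 0.597 and 0.75 CPM in YAP-5SA and 1.52, 1.34 and 1.33 CPM in YAP-S127A. TAZ-S89A was higher than YAP-5SA at a log2 fold change of 1.78 (SE 0.24, edgeR adjusted p = 1.92e-05), and YAP-5SA lower than YAP-S127A at -1.25 (SE 0.26, edgeR adjusted p = 0.000975). The difference between TAZ-S89A and YAP-S127A was small, at 0.53 with an interval of 0.06 to 0.99. Its call was marginal (edgeR adjusted p = 0.0496) and was lost with no low-count filter (0.0633). It was also lost without any of 7 single libraries, TAZ-S89A replicate 1 (0.0967), 2 (0.0843) or 5 (0.0515), YAP-5SA replicate 2 (0.0513) and YAP-S127A replicate 1 (0.0853), 2 (0.136) or 3 (0.139), in a range of 0.0257 to 0.139 over 18 alternatives.

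Fat3 (Entrez gene 270120, chromosome 9, 15910189 to 16502681), known for a role in neuronal shape in the retina, had 1, 0, 0, 0 and 2 reads in TAZ-S89A replicates 1 to 5, against 13, 14 and 17 reads in YAP-5SA and 1, 3 and 0 in YAP-S127A. YAP-5SA libraries all lay above the rest, and the other groups overlapped. From pooled reads, YAP-5SA held 17.6 times the Fat3 of TAZ-S89A (95% interval 5.64 to 88.6) and 9.83 times that of YAP-S127A (3.58 to 37.7), with intervals for counting error only. The pooled ratios used raw library totals, without the TMM adjustment. The gene passed the low-count filter through YAP-5SA alone, so its calls there (log2 fold change -4.12, SE 0.73, edgeR adjusted p = 0.000247 for TAZ-S89A against YAP-5SA, and 3.21, SE 0.75, edgeR adjusted p = 0.00235 for YAP-5SA against YAP-S127A) are given as values. The sizes rest on few reads. The log2 fold change of TAZ-S89A against YAP-5SA was -5.18 without TAZ-S89A replicate 5 and -5.00 without replicates 4 and 5, and that of YAP-5SA against YAP-S127A was 4.55 without YAP-S127A replicate 2. TAZ-S89A against YAP-S127A was not called at -0.91 with an interval of -3.35 to 1.54.

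Dchs1 (Entrez gene 233651, chromosome 7, 105752989 to 105788355), the ligand that pairs with Fat4 in mammals, had 20 reads in all 11 libraries together and too few to test. TAZ-S89A replicates 1 to 5 held 3, 1, 1, 1 and 2 reads, YAP-5SA replicates 0, 6 and 0, and YAP-S127A replicates 3, 0 and 3. Pooled over each group this came to 0.0505 CPM in TAZ-S89A (exact Poisson 95% interval 0.0218 to 0.0995), 0.0454 CPM in YAP-5SA (0.0167 to 0.0988) and 0.0508 CPM in YAP-S127A (0.0187 to 0.111), again for counting error only. These pooled CPM were taken over raw library totals, without the TMM adjustment. A difference between groups was not detectable at this depth.

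**Figure D2:**
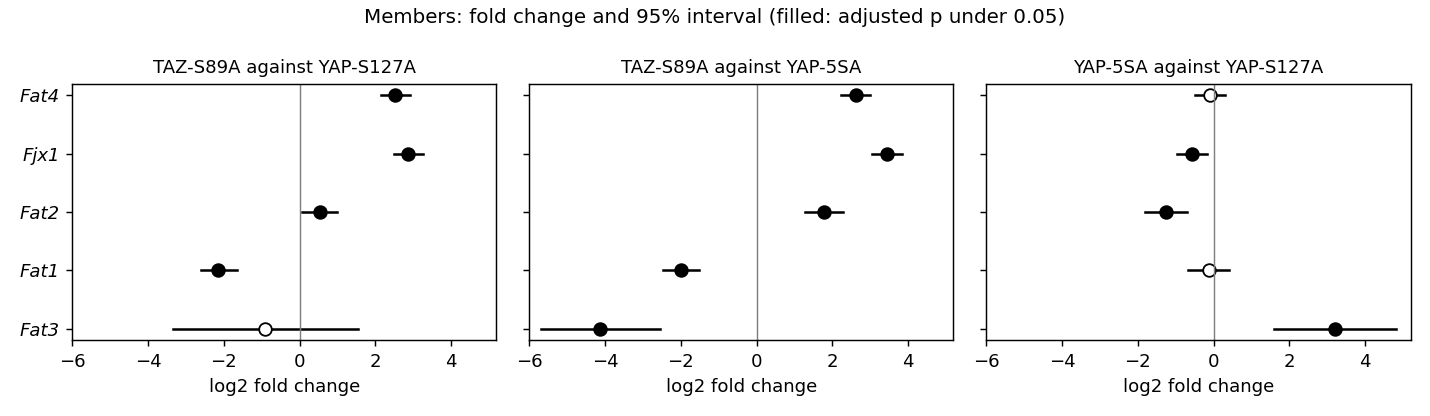
Log2 fold change (points) and 95% interval (lines) of each tested member in the 3 comparisons, filled where the edgeR adjusted p was under 0.05. Fat4 and Fjx1 lie right of 0 and Fat1 left of it in both TAZ-S89A comparisons, and the intervals of Fat1 and Fat4 span 0 between YAP-5SA and YAP-S127A.

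These calls stand against a background in which most genes differed. Of 18224 tested genes, 57.6% were called in TAZ-S89A against YAP-S127A, where 3 members were higher and 1 lower. Of all tested genes 27% were called higher and 30.6% lower there. In TAZ-S89A against YAP-5SA 57.9% were called, 26.9% higher and 31% lower, with 3 members higher and 2 lower, Fat3 among the lower. In YAP-5SA against YAP-S127A 55.2% were called, 28.2% higher and 27% lower, with 1 member higher, Fat3, and 2 lower. The number of members called is therefore no result in itself. Fat3 lends these counts no support, since it passed the low-count filter only through YAP-5SA. The sizes of Fat4, Fjx1 and Fat1 were above those of most genes but not rare. In TAZ-S89A against YAP-S127A, 13.1%, 11.5% and 15.8% of tested genes had a larger absolute log2 fold change, and 56.9% had a larger one than Fat2. Against YAP-5SA these shares were 13.1%, 9.24%, 17.2% and 19.6% for Fat4, Fjx1, Fat1 and Fat2. The comparisons share libraries, so their values for a gene are not independent of each other.

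Levels of different genes can be set side by side only per length, and for this the size-factor-adjusted RPKM deposited by the authors (nRPKM) was used. The gene model of Fat4 is 1.003 times as long as that of Fat1, so their reads compare almost directly. In TAZ-S89A, Fjx1 was the most abundant member at 9.54 ± 1.85 nRPKM (SD, n = 5), followed by Fat1 at 3.89 ± 1.29 and Fat4 at 3.69 ± 0.694, which overlapped. In YAP-5SA, Fat1 led at 15.3 ± 2.2 nRPKM (SD, n = 3), with Fjx1 at 0.869 ± 0.0673 and Fat4 at 0.595 ± 0.0806. In YAP-S127A the order was the same, with Fat1 at 16.9 ± 1.23 nRPKM, Fjx1 at 1.29 ± 0.21 and Fat4 at 0.638 ± 0.0305 (SD, n = 3). Fjx1 and Fat4 did not overlap in either YAP group. Fat2 stayed at or below 0.121 nRPKM, Fat3 at or below 0.0164 and Dchs1 at or below 0.0103 in every library.

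The balance of Fat1 to Fat4, whose gene models are of like length, differed between the TAZ and YAP groups. The ratio of Fat1 to Fat4 nRPKM was 0.83, 0.827, 0.97, 1.3 and 1.31 in TAZ-S89A replicates 1 to 5, against 25.7, 25.5 and 26.1 in YAP-5SA and 27.4, 28.7 and 23.8 in YAP-S127A. Near-equal amounts in TAZ-S89A thus stood against a large excess of Fat1 in all YAP libraries. Fat4 made up 48.6% ± 5.51 of the summed FAT-gene nRPKM in TAZ-S89A (SD, n = 5), against 3.72% ± 0.0451 in YAP-5SA and 3.63% ± 0.345 in YAP-S127A (SD, n = 3 each). The sum itself was lower in TAZ-S89A, at 7.68 ± 1.82 nRPKM, against 16.0 ± 2.28 in YAP-5SA and 17.7 ± 1.23 in YAP-S127A. The ratio of Fjx1 to Fat4 nRPKM moved far less, at 2.68 ± 0.753 in TAZ-S89A, 1.49 ± 0.305 in YAP-5SA and 2.02 ± 0.241 in YAP-S127A.

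These ratios were chosen after the values were seen, and 9 comparisons of them were made with two-sided exact permutation tests on the log2 scale. Fat1 over Fat4 differed by -4.69 between TAZ-S89A and YAP-S127A and by -4.65 between TAZ-S89A and YAP-5SA, each at the smallest p that 5 libraries against 3 allow (exact p = 0.0357, adjusted p = 0.0643 over the 9 permutation tests). All 5 TAZ-S89A libraries showed the direction. With these library numbers no adjusted p over the 9 tests could go under 0.05, so the adjusted values cannot decide. Fjx1 over Fat4 differed by 0.37 against YAP-S127A (exact p = 0.179, adjusted permutation p = 0.257) and by 0.82 against YAP-5SA (exact p = 0.0357, adjusted permutation p = 0.0643). The summed level differed by -1.23 and -1.08 in these comparisons, at the same exact p of 0.0357 and the same adjusted permutation p of 0.0643. Between YAP-5SA and YAP-S127A, with 3 libraries each, an exact test cannot go below p = 0.1, and the differences were -0.04 for Fat1 over Fat4 (exact p = 0.7), -0.45 for Fjx1 over Fat4 (exact p = 0.2) and -0.15 for the sum (exact p = 0.4).

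**Figure D3:**
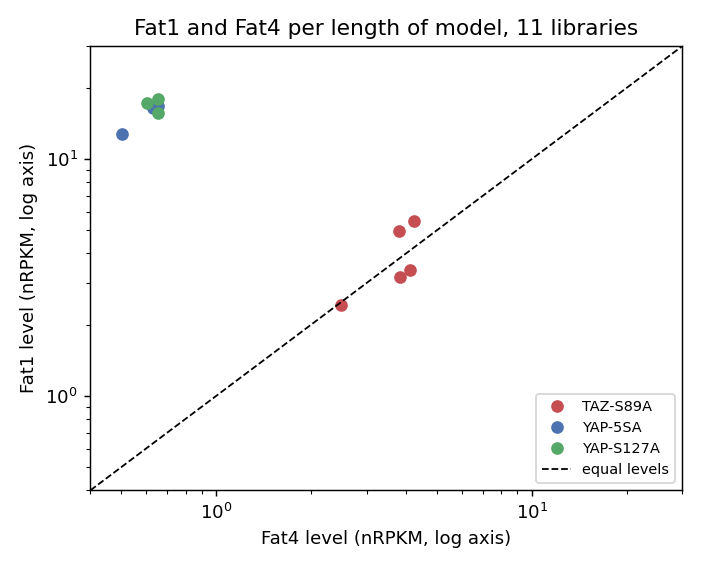
Fat1 level against Fat4 level in nRPKM for the 11 libraries, on log axes, with a dashed line where both are equal. The 5 TAZ-S89A libraries lie close to the line, at ratios of 0.827 to 1.31, and the 6 YAP libraries lie well above it, at ratios of 23.8 to 28.7.

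Both large cadherins dipped together in 2 libraries. In TAZ-S89A replicate 3, Fat1 was 0.58 and Fat4 0.50 below the group mean on the log2 CPM scale (deviations -0.58 and -0.50), whereas Fjx1, whose model is a fraction as long, deviated by -0.01. In YAP-5SA replicate 2 the deviations were -0.25 for Fat1, -0.23 for Fat4 and 0.08 for Fjx1. The 908 genes in the longest 5% of tested gene models, members left out, had a median deviation of -0.35 and -0.22 in these same libraries and between -0.08 and 0.15 in the other 9. With both libraries left out, Fat4 in TAZ-S89A was at a log2 fold change of 2.69 against YAP-S127A and 2.66 against YAP-5SA, and Fat1 at -1.95 and -1.94. Over all libraries the median log2 fold change of these long models was -0.13 in TAZ-S89A against YAP-S127A, 0.06 in TAZ-S89A against YAP-5SA and -0.20 in YAP-5SA against YAP-S127A.

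**Figure D4:**
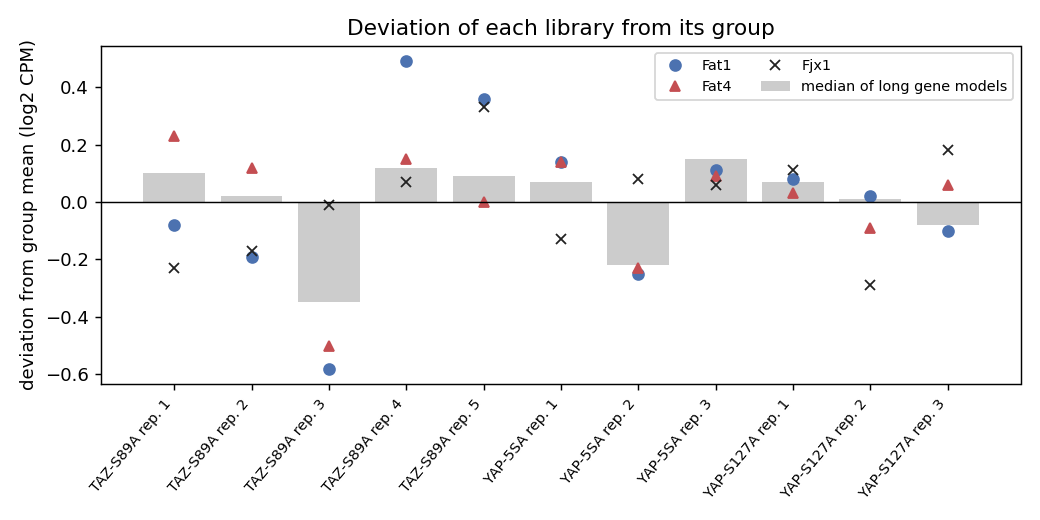
Deviation of each library from the mean of its group in log2 CPM, as the median of 908 long gene models (bars) and for Fat1, Fat4 and Fjx1 (points). Fat1 and Fat4 lie below 0 with the long models in TAZ-S89A replicate 3 and YAP-5SA replicate 2, while Fjx1 stays near 0 there.

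Values of the chromosome and the neighbours of each tested member stand beside these results. Genes of chromosome 8 had a median log2 fold change of 0.27 in TAZ-S89A against YAP-S127A and 0.35 against YAP-5SA, opposite in sign to Fat1, and of 11 tested genes within 1 Mb of Fat1, 6 were higher and 2 lower in each. For chromosome 3, which carries Fat4, these medians were 0.18 and -0.08. Of 5 tested genes within 1 Mb of Fat4, 1 was higher and 4 lower against YAP-S127A, and 1 higher and 3 lower against YAP-5SA. For chromosome 2, which carries Fjx1, the medians were 0.17 and -0.08, with 9 of 13 neighbours of Fjx1 higher against YAP-S127A (median 0.77) and 5 of 13 against YAP-5SA (median 0.13). For chromosome 11, which carries Fat2, the medians were 0.22 against YAP-S127A and -0.09 against YAP-5SA, and of 17 neighbours 5 were higher and 5 lower in the first comparison and 4 higher and 6 lower in the second. Chromosome 9, which carries Fat3, had a median of -0.67 in TAZ-S89A against YAP-S127A and -0.56 in TAZ-S89A against YAP-5SA, and of 9 neighbours of Fat3, 1 was higher in each and 6 and 5 were lower. In YAP-5SA against YAP-S127A the chromosome medians were -0.06 for Fat1, 0.29 for Fat4, 0.28 for Fjx1, 0.33 for Fat2 and -0.09 for Fat3, whose neighbours had a median of 0.03.

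Over the 11 libraries, some genes followed the members closely. Fat4 was most like Tfcp2l1, a transcription factor gene (Pearson r = 0.9957), Helq, a DNA helicase gene (0.9947), and Cacna2d1, a calcium channel subunit gene (0.9929). Tfcp2l1 averaged 44.3 ± 6.63 CPM in TAZ-S89A libraries, 2.5 ± 0.242 CPM in YAP-5SA libraries and 3.25 ± 0.148 CPM in YAP-S127A libraries. Fjx1 was most like Cacna2d1 (0.9925), the autophagy gene Rb1cc1 (0.9925) and the ecto-phosphodiesterase gene Enpp1 (0.9915). Fat1 was most like the exchange factor gene Dock5 (0.9963), Agap1 (0.9962) and Rock2 (0.9961), a kinase that acts on actomyosin, which averaged 148.7 ± 21.3 CPM in TAZ-S89A libraries, 311.5 ± 31.7 CPM in YAP-5SA libraries and 320.1 ± 16 CPM in YAP-S127A libraries. Fat2 was most like Tgs1 (0.9779), Zfp942 (0.97) and the collagen VI gene Col6a1 (0.9694), and Fat3 most like Vrk3 (0.9476), Endod1 (0.9458) and Haus4 (0.9452). These are correlations of log2 CPM with 10570 other genes over libraries that fall into 3 groups, so they describe mostly the order of the groups. Tgs1 and Rb1cc1 overlap other tested genes.

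Of 19 genes written down as partners and effectors of the FAT and Dachsous proteins, 18 were tested. In TAZ-S89A against YAP-S127A 5 were higher, 6 lower and 7 not called, or 61.1% called against 57.6% of all tested genes (median log2 fold change -0.17, against -0.03). The members with the largest changes were Fbxl7, an F-box gene whose fly counterpart binds Fat, with 0.182 ± 0.0816 CPM in TAZ-S89A libraries and 7.04 ± 0.309 CPM in YAP-S127A libraries (-5.21, SE 0.26), Amotl1 (-2.68, SE 0.17), an angiomotin that Fat4 binds in mouse heart, Vasp (-1.36, SE 0.13), an actin regulator, and Zdhhc14 (1.49, SE 0.29), a palmitoyltransferase related to Approximated of the fly. In TAZ-S89A against YAP-5SA 6 were higher and 5 lower, or 61.1% called against 57.9% (median 0.11, against -0.04). There Zdhhc14 was higher (3.03, SE 0.34), and Fbxl7 (-3.52, SE 0.28), Amotl1 (-2.37, SE 0.17) and the junction scaffold gene Patj (-1.38, SE 0.14) were lower. In YAP-5SA against YAP-S127A 5 were higher and 9 lower, or 77.8% called against 55.2% (median -0.44, against 0.01), with the scaffold gene Mpdz (-2.37, SE 0.20), Fbxl7 (-1.70, SE 0.24), Zdhhc14 (-1.54, SE 0.38) and Zdhhc18 (-1.44, SE 0.14) lowest. Lix1 was not tested, with at most 6 reads in a library.

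The listed planar polarity genes, of a parallel system that also orients cells, were all tested, 18 in number. The list held core genes and others linked to them, among the latter Ptk7, Ror2, Fuz and Intu. In TAZ-S89A against YAP-S127A 8 were higher and 8 lower, or 88.9% called against 57.6% of all tested genes (median log2 fold change -0.09, against -0.03). In TAZ-S89A against YAP-5SA 10 were higher and 4 lower, or 77.8% called against 57.9% (median 0.46, against -0.04). The LIM protein gene Prickle2 averaged 0.139 ± 0.107 CPM in TAZ-S89A libraries, 0.222 ± 0.079 CPM in YAP-5SA libraries and 12.2 ± 1.06 CPM in YAP-S127A libraries, and its relative Prickle3 was lower in TAZ-S89A than in YAP-S127A (-4.00, SE 0.23) and YAP-5SA (-3.70, SE 0.23). The adhesion receptor gene Celsr1 was higher in TAZ-S89A than in YAP-S127A (2.26, SE 0.34), as was the Wnt receptor gene Ror2 (3.04, SE 0.24). Against YAP-5SA, Celsr2 (2.26, SE 0.26), the Frizzled gene Fzd3 (2.39, SE 0.19) and the receptor gene Ptk7 (5.64, SE 0.27) were higher. Ptk7 averaged 32.9 ± 9.01 CPM in TAZ-S89A libraries, 0.653 ± 0.0979 CPM in YAP-5SA libraries and 60.8 ± 0.266 CPM in YAP-S127A libraries. In YAP-5SA against YAP-S127A 6 were higher, Celsr1 (3.18, SE 0.37) and Ror2 (2.52, SE 0.25) among them, and 9 lower, or 83.3% called against 55.2% of all tested genes (median -0.41, against 0.01), with Ptk7 (-6.53, SE 0.29) and Prickle2 (-5.75, SE 0.38) lowest. Prickle3 overlaps the tested gene Plp2.

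Of 18 genes of the Hippo kinases and their regulators, through which fly Fat restrains Yorkie, all were tested. In TAZ-S89A against YAP-S127A 3 were higher and 9 lower, or 66.7% called against 57.6% of all tested genes (median log2 fold change -0.36, against -0.03). In TAZ-S89A against YAP-5SA 0 were higher and 7 lower, or 38.9% called against 57.9% of all tested genes, of which 31% were lower (median -0.20, against -0.04). The count of 0 against YAP-5SA was also 0 at an unadjusted edgeR p under 0.05, by DESeq2 and by limma-voom, and the highest log2 fold change of the list there was 0.36. The kinase gene Tnik averaged 0.69 ± 0.226 CPM in TAZ-S89A libraries, 0.569 ± 0.148 CPM in YAP-5SA libraries and 13.4 ± 0.941 CPM in YAP-S127A libraries. The scaffold gene Rassf1 was lower in TAZ-S89A than in YAP-S127A (-1.96, SE 0.16) and YAP-5SA (-0.88, SE 0.16), as was the phosphatase gene Ptpn14 (-1.09, SE 0.17, and -1.80, SE 0.17). The kinase gene Map4k4 was lower against YAP-S127A (-1.22, SE 0.16), and Wwc1, the KIBRA gene (-0.81, SE 0.15), and Taok3 (-0.93, SE 0.13) against YAP-5SA. Against YAP-S127A, Wwc1 was instead higher in TAZ-S89A (1.03, SE 0.16), the largest of the 3 calls in that direction. In YAP-5SA against YAP-S127A 6 were higher and 5 lower, or 61.1% called against 55.2% (median -0.04, against 0.01), with Wwc1 (1.84, SE 0.18) and Stk3, an MST kinase gene (1.19, SE 0.24), higher and Tnik (-4.55, SE 0.29) and the scaffold gene Sav1 (-1.11, SE 0.14) lower. Rassf1, Ptpn14 and Sav1 overlap other tested genes. All pathway calls named here had edgeR adjusted p-values between 5.17e-10 and 0.00351.

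**Figure D5:**
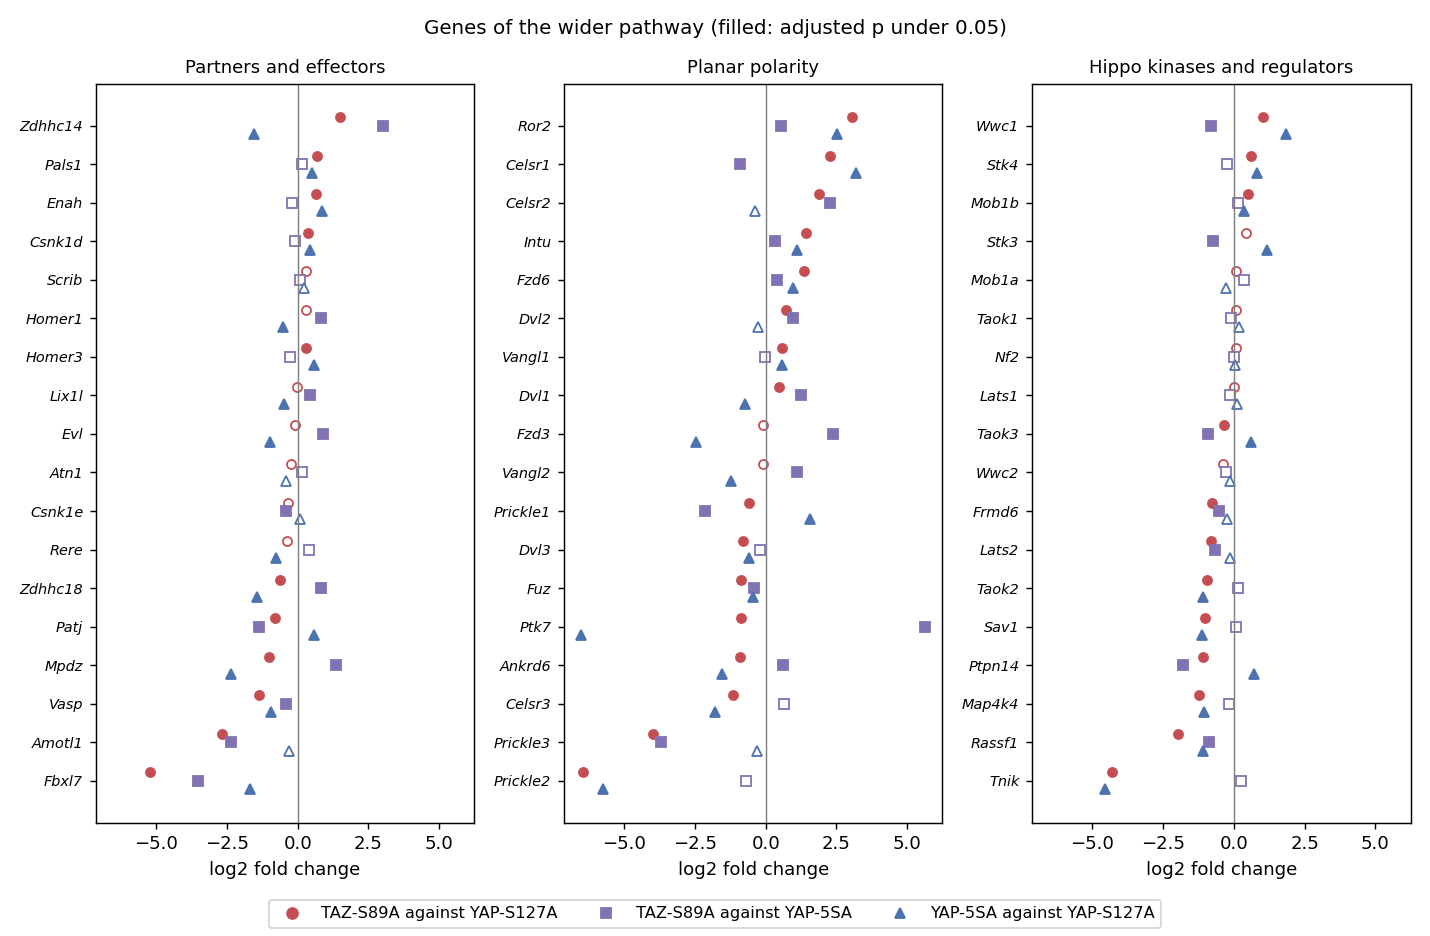
Log2 fold change of each tested gene of the 3 pathway lists in the 3 comparisons (circles, squares and triangles), filled where the edgeR adjusted p was under 0.05. Changes go in both directions in each list, and Fbxl7, Prickle2, Ptk7 and Tnik lie furthest from 0.

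Across the series, total counts ran from 20071144 to 49159713 per library, lowest in TAZ-S89A replicates 4 and 5. The labelled liver tissue was not matched by hepatocyte markers, whose 10 genes summed to between 1.30 and 2.23 CPM in TAZ-S89A libraries, 15.6 and 16.7 in YAP-5SA and 15.4 and 18.04 in YAP-S127A, with Alb at no more than 1.31 CPM in any library, Ttr at 0 in all YAP-5SA libraries and Tat at 0 in all YAP-S127A libraries. Of these 10 genes 0, 2 and 2 averaged at least 1 CPM in TAZ-S89A, YAP-5SA and YAP-S127A. The 2 were Hnf4a (0.677, 7.16 and 8.25 CPM in that order of groups) and Trf (0.748, 8.7 and 7.65 CPM). They made up most of the hepatocyte sums and of their difference between groups. Cps1 (0.166, 0 and 0.0593 CPM), Tat and Cyp2e1 lay near the floor and averaged highest in TAZ-S89A. Biliary markers (7 genes, 6 of them at a mean of at least 1 CPM in each group) summed to between 1765 and 3668 CPM in TAZ-S89A, 2722 and 4276 in YAP-5SA and 466.5 and 591.1 in YAP-S127A. In the same order of groups, Spp1 (2740, 203 and 326 CPM) made up most of the sum in TAZ-S89A. Krt7 (1.41, 1740 and 102 CPM) and Krt19 (7.38, 1370 and 55.9 CPM) made up most of it in YAP-5SA. Mesenchymal markers (9 genes) summed to between 4270 and 5552 CPM in TAZ-S89A, 5104 and 5742 in YAP-5SA and 10520 and 10880 in YAP-S127A, with 7, 8 and 9 of them at a mean of at least 1 CPM. The like sums of TAZ-S89A and YAP-5SA covered different genes. Col1a2 (2220, 16.2 and 2270 CPM) and Pdgfrb (268, 1.12 and 474 CPM) were higher in TAZ-S89A of these 2. Vim (1630, 4280 and 2550 CPM) and Col1a1 (31, 322 and 2950 CPM) were higher in YAP-5SA. Endothelial markers (7 genes) summed to between 0.377 and 1.14 CPM in TAZ-S89A, 1.28 and 1.5 in YAP-5SA and 1.94 and 2.58 in YAP-S127A, and leukocyte markers (7 genes) summed to between 7.93 and 9.36 CPM in TAZ-S89A, 51.7 and 54.2 in YAP-5SA and 14.97 and 15.06 in YAP-S127A. The hepatocyte, endothelial and leukocyte sums were thus lower in every TAZ-S89A library than in any YAP library, the direction of Fat1. No sum was higher there than in both YAP groups, the direction of Fat4 and Fjx1. Single markers were mixed. Endothelial markers lay near the floor, with Kdr (0.101, 0.24 and 1.25 CPM) lowest in TAZ-S89A and Stab2 (0.366, 0.34 and 0.337 CPM) highest there. Csf1r (1.82, 28.2 and 7.6 CPM) and Lyz2 (0.167, 16 and 1.34 CPM) made up most of the leukocyte difference. Cd68 (6.46, 8.47 and 5.73 CPM) was lowest in YAP-S127A. The part of these markers in the results was not tested.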

How the data were processed

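Per the file headers, each deposited table holds a raw count per gene, of reads with a unique alignment to the Entrez gene model, and an RPKM that the authors corrected by a size factor (nRPKM). GSNAP and GRCm38 are named in the submitters' processing notes. Versions, counting tool and strand are unknown here. Replicates were numbered in deposition order. Names and positions came from RefSeq (GRCm38.p6), which matched 31049 of 36528 IDs.

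Counts were tested with edgeR 4.0.16 (R 4.3.3). Of all genes, 18224 passed filterByExpr, libraries were scaled by TMM, and 1 robust quasi-likelihood model with the 3 groups as its only term was fitted to all 11 libraries. SE is the absolute log2 fold change over the square root of F. The steps were tested on simulated data. nRPKM served only to compare genes per length. Alternatives were RLE factors, DESeq2 1.42.0, limma-voom (limma 3.58.1), no filter, only the groups compared, no second ID series and each library left out. Leaving out the 2 libraries lowest in long models was added after seeing the data.

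Genes named are the 7 members, up to 4 called genes per pathway list and comparison with the largest absolute log2 fold change, and the 3 tested genes most correlated with each tested member (average log2 CPM of at least 2, prior count 2). The members and lists were chosen with earlier results of these data known. Marker genes given singly fall outside this rule.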

Additional observations from a re-analysis of the deposited data

Results flagged for a closer look

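Fat3 in TAZ-S89A replicate 5, at 0.0835 CPM, stood apart from the other TAZ-S89A libraries, with a gap to the nearest of them of 0.717 of the whole range (Dixon's limit for 5 libraries is 0.71). The value rests on 2 reads, against 1, 0, 0 and 0 in the others. Of 8 values so examined in this group it was the only one past the limit. Chance passes about 1 group in 20 where values are normally distributed. That rate need not hold for counts this low.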

How the results depend on the processing

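All 18 alternatives kept the direction and the call of Fat1, Fat4 and Fjx1 in both TAZ-S89A comparisons and of Fat2 in TAZ-S89A against YAP-5SA and in YAP-5SA against YAP-S127A. Fat3 is left out of this statement, since it passed the filter only through the group where it was high. With each library left out in turn, 9020 to 10920 genes were called in TAZ-S89A against YAP-S127A, 9451 to 11154 in TAZ-S89A against YAP-5SA and 8778 to 10724 in YAP-5SA against YAP-S127A. Members called then numbered 3 to 4, 5 in every case, and 2 to 3, with Fat3 counted in both comparisons that involve YAP-5SA. Signs that turned belonged to differences that were not called: Fat4 in YAP-5SA against YAP-S127A was 0.01 without YAP-5SA replicate 2 and 0.02 without the 2 libraries lowest in long models, and Fat3 in TAZ-S89A against YAP-S127A was 0.43 without YAP-S127A replicate 2. Over the libraries left out singly these values ran from -0.16 to 0.01 and from -1.95 to 0.43. The cause was not tested. Fat3 was not tested in TAZ-S89A against YAP-S127A with only those groups in the fit, since the filter then removed it. Depth limits Fat3 and Dchs1, which had at most 17 and 6 reads in a library. Calls lost for Fat2 and Fjx1 are given with those genes. No paired analysis was possible because the labels carry no replicate numbers.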
